A study of Drosophila melanogaster with 12 samples.

Results

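Knockdown of Atx2 was examined in the brains of flies that express TDP-43, by setting 3 RNA libraries from TDP-43 flies with a hairpin against Atx2 beside 3 from TDP-43 flies with a control hairpin. These are 6 of the 12 samples in the series, and all genes of the deposited table that passed a filter on low counts were compared. The other 6 libraries come from flies without TDP-43 that carried the same 2 hairpins, and they are used here to ask whether the effect of the hairpin differed without TDP-43. The series asks how TDP-43 disturbs sleep and how Atx2 bears on that disturbance.

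Atx2 is the fly ortholog of human ataxin-2, a cytoplasmic RNA-binding protein that works with the poly(A)-binding protein in messenger RNA stability and translation, and that is needed in the fly for daily rhythms of behaviour. TDP-43 is a nuclear RNA-binding protein that is found in cytoplasmic aggregates in amyotrophic lateral sclerosis, and lowering ataxin-2 is known to soften TDP-43 toxicity in yeast, flies and mice. TBPH is the fly's own TDP-43 gene.

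Both TDP-43 groups were labelled DaGSTDP(52s), the daughterless-GeneSwitch driver with the TDP-43 line 52s, and carried either the Atx2 hairpin of stock BL44012 or the mCherry hairpin of stock BL35785. The groups without TDP-43 were labelled DaGS and carried the same hairpins. GeneSwitch is a form of GAL4 that acts when flies eat the drug RU486, daughterless is active in nearly all cells, and flies have no mCherry gene, so knockdown and TDP-43 were not limited to neurons. Males collected 1 to 2 days after eclosion from crosses at 25 °C were fed RU486 in all 4 groups, and brains were taken after 6 days of the drug. Each hairpin and the TDP-43 transgene were represented by 1 line, so a difference in genetic background between lines cannot be told apart from the effect of the hairpin or the transgene.

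The TDP-43 libraries held 45104293, 32744607 and 34619332 counts with mCherry RNAi and 31726136, 40792054 and 38240673 counts with Atx2 RNAi, in the order of replicates 1, 2 and 3. All values in triplets below keep that order, and where 2 triplets follow each other the first is mCherry RNAi and the second Atx2 RNAi. Levels are CPM, counts scaled to a library of 1e6, and changes are log2 fold changes of Atx2 RNAi over mCherry RNAi ± the standard error (SE) of the fit. A gene was called, and is said to have risen or fallen, where edgeR's quasi-likelihood test gave an adjusted p below 0.05 over the 10738 genes tested, with n = 3 libraries a group. Same-numbered TDP-43 libraries deviated together, so where fitting the 6 libraries alone with the replicate number as a block ended a call, that second p follows, marked "blocked". "Atx2 replicate 2" and the like stand for single TDP-43 libraries, and where several follow "without", each was left out alone.

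Transcripts of neighbouring tissue differed among these 6 libraries, and not only between the groups. Summed over 12 fat body genes, the level was 2833, 7661 and 10673 CPM with mCherry RNAi and 5202, 2460.2 and 3894 CPM with Atx2 RNAi. The sum over 13 muscle genes was 220.4, 668 and 697 CPM and 316, 178 and 329 CPM, and that over 31 gut enzyme genes was 212, 1941 and 314 CPM and 234, 983 and 224 CPM. mCherry replicate 1 was thus low in fat body and muscle transcripts, the other 2 mCherry libraries were above every Atx2 library in both, and replicate 2 was highest in gut enzymes in both groups. Over 10 neuronal genes the sums were 14574, 14915 and 14559 CPM and 15234, 15299.8 and 15757 CPM, and over 13 glial genes 5283, 4987 and 5204 CPM and 4809, 4972 and 5009 CPM. No neuronal, glial, fat body or muscle marker was at 0 in these libraries, while 4 gut enzyme genes and 27 of 71 male reproductive tract genes were. The 10 hemocyte genes summed to 738, 807 and 1486 CPM and 1245, 994 and 1058 CPM, and the 15 photoreceptor genes to 2069.5, 4216 and 2629 CPM and 2659, 4491 and 2939.9 CPM. In bulk tissue, fewer cells of a type and less RNA per cell cannot be told apart.

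The hairpin lowered its target. Atx2 (3R, 15408423 to 15417277) stood at 267, 304 and 289 CPM with mCherry RNAi and at 144, 163 and 155 CPM after Atx2 RNAi (-0.89 ± 0.059, edgeR adjusted p = 5.34e-06). The groups were well separated, and the level in TDP-43 flies with the hairpin was close to that of the flies without TDP-43 that carried it, 152, 166 and 162 CPM. TBPH (2R, 23859067 to 23862593) was 71.5, 68.7 and 65.5 CPM and 78.8, 81.1 and 76.7 CPM (0.20 ± 0.055, edgeR adjusted p = 0.0317, 0.0954 blocked). This small rise was one whose call was lost in 9 of the 12 fits that leave out 1 library, with a largest adjusted p of 0.154 without Atx2 replicate 2. The transgene's own transcript was not analysed here. The eye pigment gene w, a common marker carried by transgenes, stood at 2405, 2174 and 2019 and 2076, 2077 and 1985 CPM (-0.10 ± 0.084, edgeR adjusted p = 0.451), so the TDP-43 groups did not separate in it. The body colour gene y was 115, 94.1 and 122 and 63.1, 66.8 and 61.5 CPM (-0.79 ± 0.34, edgeR adjusted p = 0.161) and was not called although its libraries do not overlap. In the 6 TDP-43 libraries alone y was called, with an edgeR adjusted p of 0.00787, or 0.0391 blocked. The eye pigment gene v was 18.3, 24.7 and 29.4 and 15.8, 9.94 and 11.8 CPM (-0.95 ± 0.27, edgeR adjusted p = 0.0477, 0.18 blocked). That call was lost in 7 of the 12 fits that leave out 1 library, with an adjusted p of up to 0.157 without Atx2 replicate 2.

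**Figure D1:**
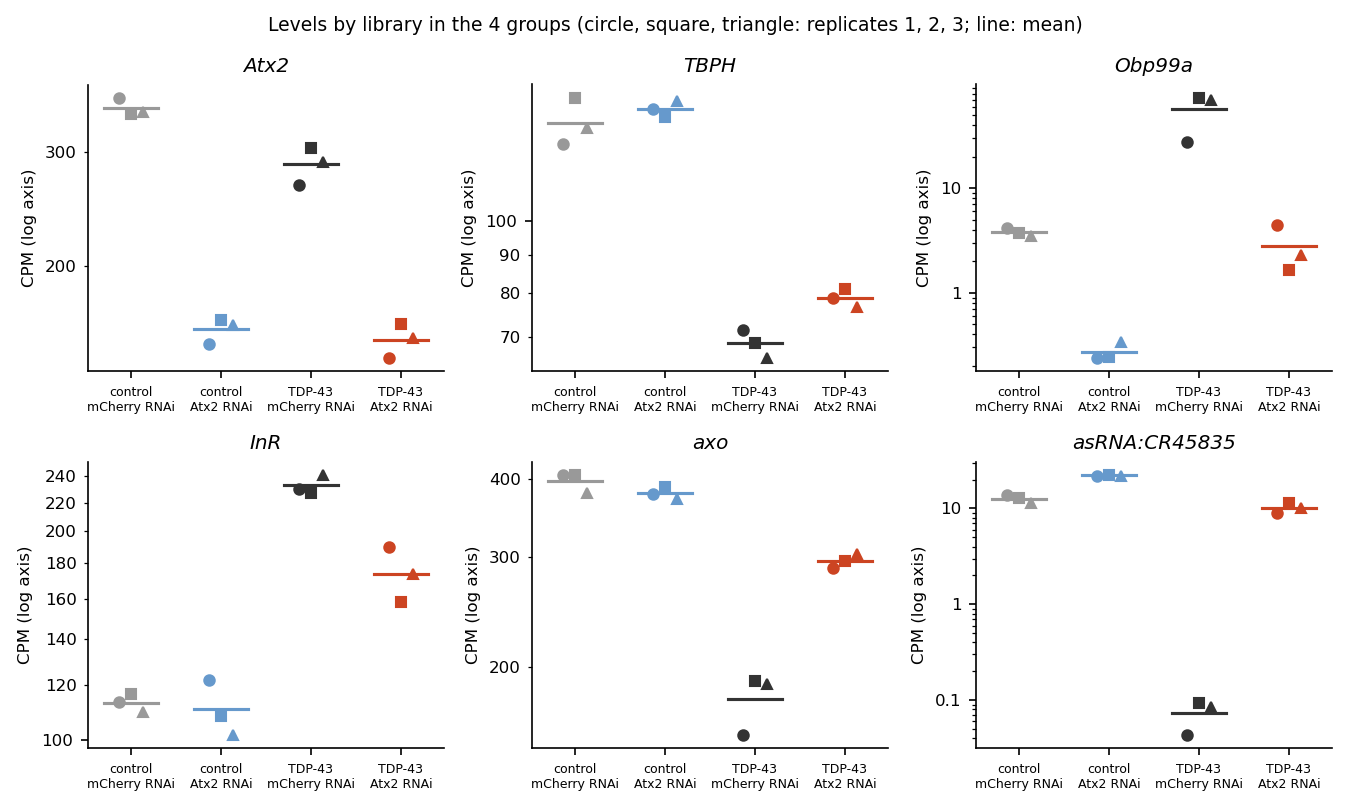
Level in CPM (log axis) of 6 genes in each of the 12 libraries, by group, with the replicate number as the symbol and the group mean as a line. In the TDP-43 groups Atx2, Obp99a and InR were lower and axo and asRNA:CR45835 higher with Atx2 RNAi. Without TDP-43, Atx2 and Obp99a were also lower and asRNA:CR45835 also higher (log2 fold change 0.80, edgeR adjusted p = 0.00325). With TDP-43 and mCherry RNAi, asRNA:CR45835 stood at 0.0737 ± 0.0268 CPM.

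Many genes changed, most by little. Of the 10738 genes, 1508 or 14.0% were called, 825 higher (7.68%) and 683 lower (6.36%) with Atx2 RNAi. The median called rise was 0.27 and the median called fall -0.49 on the log2 scale, so falls were deeper. More than 2-fold rises numbered 62 and such falls 189, and beyond 4-fold there were 33 rises and 72 falls. The libraries of the groups did not overlap in 3508 genes, or 32.7%. Called genes named for the size of their change or from a list were picked among genes without such overlap. Where the groups are said below not to overlap in such genes, this follows from that choice. The count fell to 731, 802 and 967 genes without Atx2 replicate 2, Atx2 replicate 3 and mCherry replicate 3, and 629 genes were called in every fit that left out 1 library. With the replicate block, 1718 genes were called over all 12 libraries and 506 in the 6 TDP-43 libraries alone, where 911 were called without the block. Neuronal excitability and wiring genes were among the small rises, and genes of detoxification, lipid and sugar metabolism among the larger falls. Genes named below as having risen or fallen were called in every fit that left out 1 library, except where a loss is given. The counts of lists also hold members whose call was lost in some of these fits. Calls held in every such fit for 8 of the 11 risen channel genes. They held for 6 of the 9 risen amine receptor genes and 8 of the 12 fallen UDP-glycosyltransferase genes.

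**Figure D2:**
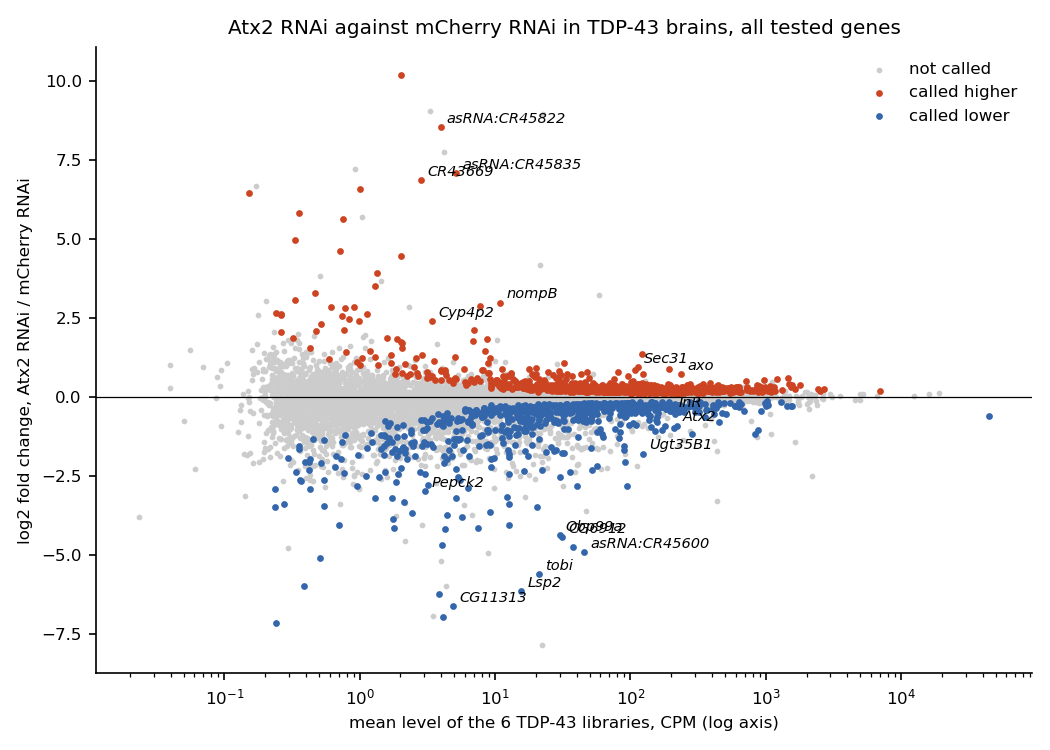
Log2 fold change of Atx2 RNAi over mCherry RNAi in TDP-43 brains against the mean level of the 6 libraries in CPM (log axis), 1 point per tested gene, with called genes coloured and some named genes marked. The 825 called rises lie mostly within 2-fold, and the 683 called falls reach further; folds of genes near 0 in a group, such as asRNA:CR45822 and CR43669, depend on the prior count of the fit.

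The cytochrome P450 family, oxidases that act on hormones and foreign compounds, moved down more than up. Of 74 tested members 2 rose and 17 fell, with a median log2 fold change of -0.47 beside -0.02 over all genes. That is 25.7% called, where 14.0% of all genes were called, 7.68% higher and 6.36% lower. Cyp28d1 (2L, 5210460 to 5212445) stood at 594, 562 and 545 CPM with mCherry RNAi and 345, 325 and 324 CPM after Atx2 RNAi (-0.78 ± 0.071, edgeR adjusted p = 5.56e-05). Cyp12a4, a mitochondrial P450, stood at 54.6, 54.4 and 63.5 and 24.4, 22.8 and 25.1 CPM (-1.25 ± 0.10, edgeR adjusted p = 2.86e-05). In Cyp28d1 and Cyp12a4 the 3 Atx2 libraries were near each other and below every mCherry library. Cyp309a1 was 11.9, 28.9 and 30.7 and 2.41, 0.617 and 1.39 CPM (-4.03 ± 0.65, edgeR adjusted p = 0.00444, 0.155 blocked), with mCherry replicate 1 the lowest of its group. Cyp6w1, chosen after its values were seen, was 41.3, 108 and 111 and 18.6, 17 and 17 CPM (-2.31 ± 0.36, edgeR adjusted p = 0.00408, 0.147 blocked) and showed the same low mCherry replicate 1. The rises were Cyp4p2, at 0.645, 0.866 and 1.7 and 7.19, 4.82 and 5.21 CPM (2.42 ± 0.34, edgeR adjusted p = 0.00113), and Cyp9f3. Cyp9f3 stood at 12.7, 11.7 and 12.9 and 21.4, 22.4 and 25.3 CPM (0.89 ± 0.089, edgeR adjusted p = 1.04e-04). Cyp4p1, a close relative of Cyp4p2 chosen after its values were seen, went the other way, at 9.51, 20.5 and 33.7 and 4.66, 3.7 and 3.51 CPM (-2.42 ± 0.51, edgeR adjusted p = 0.0138, 0.172 blocked). Its call was lost in 2 of the 12 fits (largest adjusted p 0.0655 without Atx2 replicate 2), and reads of such relatives may be split between them. The count of lower P450 genes was 7 without Atx2 replicate 2; 8 without Atx2 replicate 3; 11 without mCherry replicate 3, and that of higher ones 5 without mCherry replicate 3.

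UDP-glycosyltransferases, which couple sugars to small lipophilic molecules, fell more widely: of 24 tested members 0 rose and 12 fell, with a median of -0.58. Calls made up 50% of them, beside 14.0% of all genes. Ugt35B1 (3R, 11168503 to 11170246) stood at 200.4, 179 and 200.3 CPM with mCherry RNAi and 58, 56.7 and 54 CPM after Atx2 RNAi (-1.78 ± 0.050, edgeR adjusted p = 7.61e-10). Ugt49C1 was 40.1, 41.5 and 63.5 and 15.4, 13.3 and 14.3 CPM (-1.75 ± 0.16, edgeR adjusted p = 1.04e-04). Ugt36D1 was 31.8, 24.8 and 27.6 and 14.7, 15.3 and 15.3 CPM (-0.89 ± 0.10, edgeR adjusted p = 1.96e-04). Ugt35A1 was 12.1, 8.97 and 12.5 and 5.12, 4.53 and 4.98 CPM (-1.20 ± 0.14, edgeR adjusted p = 3.43e-04). In none of these 4 genes did the groups overlap, which the choice of genes required. Ugt37A3, at 4.11, 6.84 and 13.7 CPM with mCherry RNAi, was near absent with Atx2 RNAi, at 0.123, 0.0712 and 0 CPM, at or below 4 counts a library (edgeR adjusted p = 0.00182, 0.0599 blocked). The count of higher members was 1 without mCherry replicate 1.

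Glutathione S-transferases, which attach glutathione to reactive compounds, had 32 tested members, of which 1 rose and 7 fell (median -0.33). Calls made up 25% of them, beside 14.0% of all genes. GstD1 (3R, 12367817 to 12369268) was 150.02, 150.12 and 203 CPM with mCherry RNAi and 110.2, 114 and 108 CPM after Atx2 RNAi (-0.60 ± 0.12, edgeR adjusted p = 0.00794, 0.0845 blocked). GstD2 was 4.04, 3.74 and 6.14 and 0.957, 0.831 and 0.929 CPM (-2.35 ± 0.29, edgeR adjusted p = 4.49e-04). The riser GstD11 was 5.29, 5.72 and 5.88 and 10.2, 9.8 and 10.9 CPM (0.87 ± 0.12, edgeR adjusted p = 0.00108). The GstD genes lie in a cluster and are alike in sequence, so reads may be split between copies. GstD5 fell from 0.495, 1.3 and 1.19 CPM to 0, 0.0475 and 0.0258 CPM, at or below 3 counts a library (edgeR adjusted p = 0.0013). The number of lower members was 3 without Atx2 replicate 2 and 4 without mCherry replicate 3, and that of higher ones 2 without mCherry replicate 1. Fat body, muscle and gut transcripts were also lower on average with Atx2 RNAi, with medians of -0.99, -0.94 and -1.22. Of their tested members, 1 of 11, 1 of 13 and 0 of 14 were called lower, where 6.36% of all genes were. Their part in the fall of these enzyme families was not tested.

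Among genes of energy and lipid metabolism in the 4 lists described next, some fell and none rose, where 6.36% of all genes fell and 7.68% rose. Of 26 lipid genes 0 rose and 11 fell (median -0.45). Of 13 glycogen and trehalose genes 0 rose and 3 fell (median -0.29). Of 19 genes of glycolysis and gluconeogenesis 0 rose and 4 fell (median -0.06), and of 21 genes of pyruvate use and the citric acid cycle 0 rose and 4 fell (median -0.03). The medians of the last 2 lists were near that of all genes, -0.02, and most of their members were not called. Pepck2 (2R, 18527430 to 18535749), a phosphoenolpyruvate carboxykinase of gluconeogenesis, was 4.99, 6.09 and 5.11 CPM with mCherry RNAi and 0.494, 0.878 and 0.697 CPM after Atx2 RNAi (-2.96 ± 0.27, edgeR adjusted p = 5.19e-05). Gpdh1, the glycerol-3-phosphate dehydrogenase, was 330.2, 376 and 403 and 264, 274 and 267 CPM (-0.46 ± 0.077, edgeR adjusted p = 0.00266). Mdh1, the cytosolic malate dehydrogenase, was 208, 178 and 193 and 115, 113 and 120.4 CPM (-0.73 ± 0.11, edgeR adjusted p = 0.00222). In all 3 genes every Atx2 library was below every mCherry library. The isocitrate dehydrogenase gene Idh was 161, 252 and 275 and 123, 106 and 110.1 CPM (-1.02 ± 0.18, edgeR adjusted p = 0.00682, 0.16 blocked), with mCherry replicate 1 nearest to the Atx2 libraries. ScsbetaG, a subunit of succinyl-CoA synthetase, was 29.7, 27.9 and 29.9 and 20.8, 22.7 and 21 CPM (-0.44 ± 0.084, edgeR adjusted p = 0.00571). AGBE, the glycogen branching enzyme, was 69.1, 76.9 and 72.8 and 54.2, 54.6 and 54.1 CPM (-0.43 ± 0.082, edgeR adjusted p = 0.00572). The count of falls in glycolysis and gluconeogenesis was 2 without Atx2 replicates 2 and 3 and mCherry replicates 2 and 3, and the count of rises in the citric acid cycle list was 1 without Atx2 replicate 1 and mCherry replicate 1. The alpha-glucosidase gene tobi, a target of brain insulin signals in the fat body, was 8.07, 56.2 and 59.2 and 0.741, 0.973 and 0.8 CPM (-5.60 ± 0.84, edgeR adjusted p = 0.00379, 0.0964 blocked).

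In the lipid list, CPT2, which brings fatty acids into use in mitochondria, was 9.03, 12.6 and 14.2 CPM with mCherry RNAi and 5.83, 6.05 and 5.62 CPM after Atx2 RNAi (-1.03 ± 0.21, edgeR adjusted p = 0.00685). The fatty acid synthase FASN2 was 3.51, 17.9 and 11.7 and 1.76, 1.61 and 1.19 CPM (-2.86 ± 0.50, edgeR adjusted p = 0.00456, 0.154 blocked). The long-chain acyl-CoA synthetase Acsl was 300.2, 359 and 355 and 274, 266 and 255 CPM (-0.35 ± 0.089, edgeR adjusted p = 0.0232, 0.0716 blocked). In FASN2 the 3 Atx2 libraries were alike and the mCherry libraries spread several-fold, with replicate 1 lowest, as in the fat body sums. The call of Acsl was lost in 4 of the 12 fits that leave out 1 library, with an adjusted p of up to 0.0874 without mCherry replicate 2. The major fatty acid synthase FASN1 and the desaturase Desat1 were both chosen after their values were seen. FASN1 was 579.6, 1511 and 1389 and 554, 487 and 509 CPM (-1.17 ± 0.32, edgeR adjusted p = 0.0425, 0.318 blocked), a call lost in 11 of the 12 fits. Desat1 was 837, 1326 and 1345 and 624, 521 and 585 CPM (-1.02 ± 0.25, edgeR adjusted p = 0.0268, 0.133 blocked), a call lost in 5 of the 12 fits. The number of lower lipid genes was 5 without Atx2 replicate 1; 2 without Atx2 replicates 2 and 3 and mCherry replicate 2; 18 without mCherry replicate 1; 4 without mCherry replicate 3. The fat body lipoprotein gene apolpp was 1146, 2566 and 3284 and 2104, 1392 and 1936 CPM (-0.37 ± 0.39, edgeR adjusted p = 0.593), and its libraries overlapped.

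**Figure D3:**
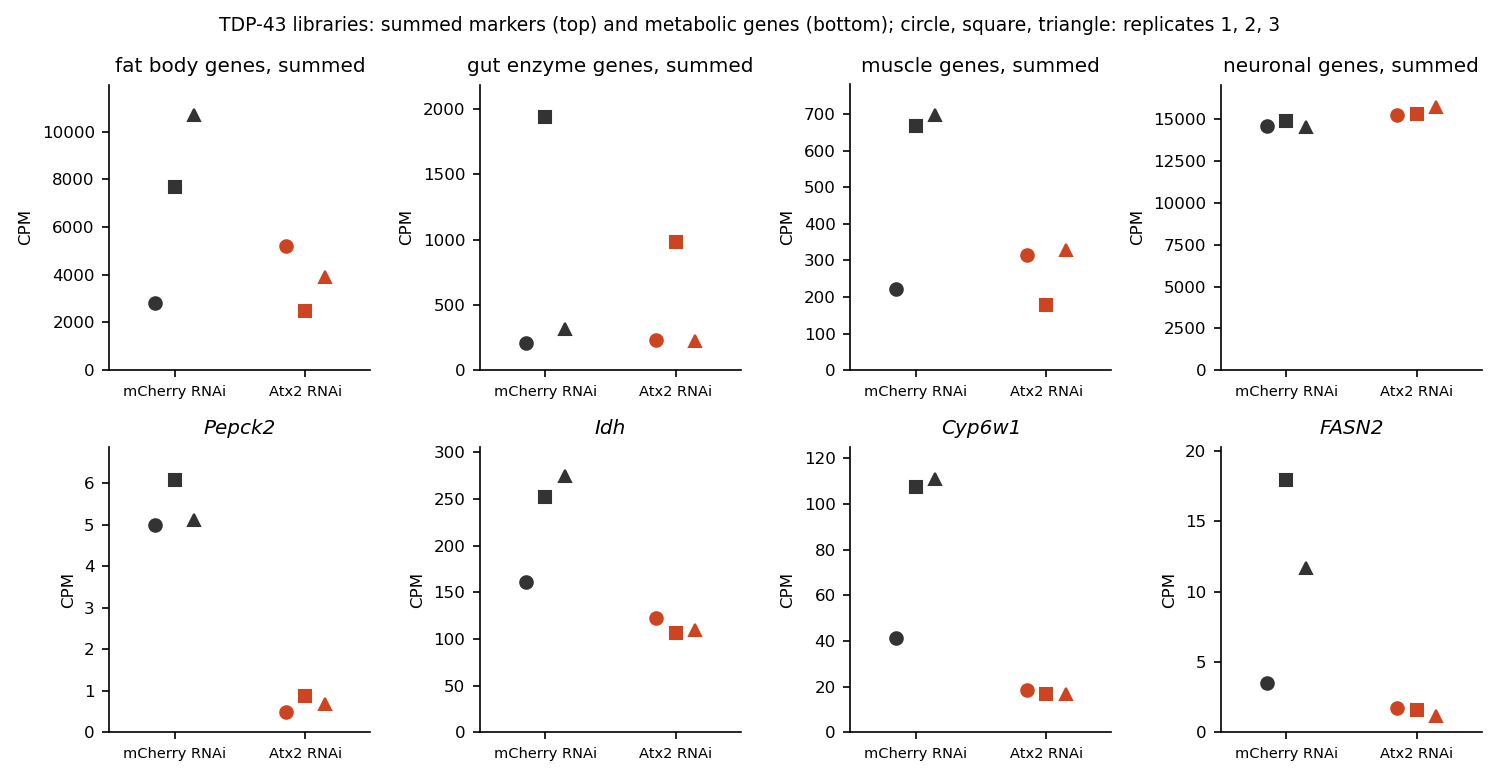
CPM in the 6 TDP-43 libraries of summed fat body, gut enzyme, muscle and neuronal genes (top) and of 4 metabolic genes (bottom), with the replicate number as the symbol. mCherry replicate 1 lies low in the fat body and muscle sums and in FASN2 and Cyp6w1, while Pepck2 separates the groups in all 3 replicates.

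Calls among redox, immune and antimicrobial peptide genes made up 28%, 13.6% and 11.1% of the members tested, beside 14.0% of all genes. Of 25 antioxidant and redox genes 1 rose and 6 fell (median -0.21). The immune-regulated catalase Irc was 605, 520.1 and 532 CPM with mCherry RNAi and 378, 388 and 414 CPM after Atx2 RNAi (-0.49 ± 0.070, edgeR adjusted p = 0.00121). Gclc, the catalytic subunit of glutathione synthesis, was 113, 123 and 117 and 93.6, 101 and 98.4 CPM (-0.27 ± 0.051, edgeR adjusted p = 0.00527). The riser Sod2, the mitochondrial superoxide dismutase, was 73.5, 74.9 and 73.7 and 91.8, 97.1 and 92.7 CPM (0.34 ± 0.064, edgeR adjusted p = 0.00503). In these 3 the groups did not overlap. The count of redox risers was 2 without mCherry replicate 1. Of 44 immune recognition and signalling genes 1 rose and 5 fell (median -0.31). Falls numbered 2 without Atx2 replicates 2 and 3; 10 without mCherry replicate 1; 3 without mCherry replicates 2 and 3. The tumour necrosis factor egr fell from 117, 126 and 123 to 90, 94.4 and 107 CPM (-0.33 ± 0.069, edgeR adjusted p = 0.00862). The gene cact, for the inhibitor of Toll pathway transcription factors, fell from 106, 113 and 113 to 90.8, 96.8 and 93.9 CPM (-0.24 ± 0.040, edgeR adjusted p = 0.0029, 0.054 blocked). Of 27 antimicrobial and stress peptide genes 0 rose and 3 fell (median -1.80). The attacin AttA was 15.2, 8.57 and 22.6 and 5.71, 3.23 and 3.35 CPM (-1.92 ± 0.35, edgeR adjusted p = 0.00568, 0.0879 blocked). AttC was 6.88, 4.15 and 13.3 and 0.926, 0.0949 and 0.361 CPM (-4.16 ± 0.75, edgeR adjusted p = 0.00626, 0.0596 blocked). AttC varied several-fold among its Atx2 libraries, and its change went from -5.13 without Atx2 replicate 1 to -3.61 without mCherry replicate 3. Rises numbered 1 without mCherry replicate 1 and control mCherry replicates 1 and 3 in the peptide list, and 0 without Atx2 replicates 2 and 3 and mCherry replicate 3 and 2 without mCherry replicate 2 in the immune list. The fat body and hemocyte sums given above bear on these lists too, and their part was not tested.

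Genes of protein quality control were called at 7.14% to 13% in 4 lists, below the 14.0% of all genes. Of 28 chaperone genes 1 rose and 1 fell, of 23 genes of the unfolded protein and integrated stress responses 0 rose and 3 fell. Of 32 autophagy and lysosome genes 0 rose and 4 fell and of 35 proteasome subunits 2 rose and 2 fell. The 4 medians were -0.12, -0.08, -0.09 and -0.01. The small heat shock gene Hsp67Ba rose from 47.8, 44.1 and 47.8 to 57.7, 59.4 and 58.3 CPM (0.33 ± 0.058, edgeR adjusted p = 0.00351, 0.0508 blocked). Hsp70Bb, an inducible chaperone and one of several near-identical copies, stood at 850.0, 924 and 1048 and 1001, 895 and 1045 CPM (0.06 ± 0.15, edgeR adjusted p = 0.839), with overlapping libraries. The autophagy kinase gene Atg1 (3L, 12784429 to 12805116) fell from 652, 641 and 652 to 508, 535 and 553 CPM (-0.29 ± 0.044, edgeR adjusted p = 0.0017). Flies without TDP-43 and with mCherry RNAi stood at 209, 202 and 193 CPM. The selective autophagy receptor ref(2)P, the fly p62, fell from 251, 252 and 249 to 198, 196 and 207 CPM (-0.33 ± 0.043, edgeR adjusted p = 7.09e-04). The Atx2 libraries of both genes lay below all mCherry libraries, and the count of lower autophagy genes was 2 without Atx2 replicates 1, 2 and 3. Falls in the unfolded protein and stress response list numbered 0 without Atx2 replicates 1 and 2 and mCherry replicate 2; 1 without Atx2 replicate 3 and mCherry replicate 3; 5 without mCherry replicate 1. Falls numbered 1 in 9 of the 12 fits without 1 library for the proteasome and 0 in 11 of the 12 fits without 1 library and 2 without Atx2 replicate 3 for chaperones, whose risers numbered 2 without mCherry replicate 3.

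Many ion channel genes rose by small amounts. Of 24 voltage-gated and related channel genes 11 rose and 0 fell, against 7.68% higher among all genes, and the median was 0.15, while 4 members had a log2 fold change below 0. The potassium channel gene Elk (2R, 17873939 to 17926695) stood at 84.4, 86.2 and 81.2 CPM with mCherry RNAi and 117, 119 and 118 CPM after Atx2 RNAi (0.49 ± 0.050, edgeR adjusted p = 1.25e-04). Ca-alpha1T, the pore of the T-type calcium channel, stood at 1188, 1302 and 1329 and 1646, 1699 and 1740.3 CPM (0.41 ± 0.050, edgeR adjusted p = 4.15e-04). Shab, a delayed rectifier potassium channel, stood at 831, 892 and 905 and 1128, 1083 and 1094 CPM (0.33 ± 0.049, edgeR adjusted p = 0.00138). These 3 and eag, at 255, 265 and 263 and 309.9, 307 and 318 CPM (0.26 ± 0.043, edgeR adjusted p = 0.00287), were higher in every Atx2 library than in any mCherry library. Also called were Ca-alpha1D (0.30 ± 0.056, edgeR adjusted p = 0.00456) and Irk2 (0.28 ± 0.052, edgeR adjusted p = 0.00499), both chosen after their values were seen. Counts of called channels with 1 library left out stayed within 1.5 times of 11.

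Receptors for amine transmitters showed the same small rise: of 21 tested 9 rose and 0 fell (median 0.17). Calls made up 42.9% of them, beside 14.0% of all genes. The octopamine receptor Octbeta3R stood at 89.3, 89.9 and 81.3 CPM with mCherry RNAi and 118, 118 and 118 CPM after Atx2 RNAi (0.44 ± 0.046, edgeR adjusted p = 1.28e-04). Octalpha2R, another octopamine receptor, stood at 207, 223 and 217 and 252, 253 and 271 CPM (0.26 ± 0.041, edgeR adjusted p = 0.00182). Both were higher in every Atx2 library. Octbeta1R was 145, 145 and 135 and 164, 169 and 168 CPM (0.24 ± 0.046, edgeR adjusted p = 0.00642, 0.06 blocked). Oamb, also an octopamine receptor, was 102, 104 and 92.7 and 119, 116 and 118 CPM (0.24 ± 0.050, edgeR adjusted p = 0.00841, 0.0696 blocked). Dop2R and Dop1R2, dopamine receptors chosen after their values were seen, rose too (0.21 ± 0.046, edgeR adjusted p = 0.0116, 0.0728 blocked for Dop2R and 0.25 ± 0.053, edgeR adjusted p = 0.00937, 0.0845 blocked for Dop1R2). Receptors for dopamine, octopamine and serotonin are known to set arousal in the fly.

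Cell surface proteins that match synaptic partners, the dpr, DIP, beat and side families, had 53 tested members, of which 16 rose and 1 fell (median 0.12). Calls made up 32.1% of them, beside 14.0% of all genes. The count of risers was 6 without Atx2 replicates 2 and 3 and 7 without mCherry replicate 3, and that of falls 0 without Atx2 replicates 2 and 3 and mCherry replicates 1 and 3. The gene side (3R, 27375088 to 27437482), which guides motor axons as a partner of beat proteins, stood at 164, 167 and 156 CPM with mCherry RNAi and 198, 201 and 191 CPM after Atx2 RNAi (0.28 ± 0.055, edgeR adjusted p = 0.0068). Its relative side-V stood at 99.3, 103 and 101 and 118, 125 and 121 CPM (0.26 ± 0.047, edgeR adjusted p = 0.00387). In neither gene did the groups overlap. Of 31 genes of synaptic transmission 8 rose and 1 fell (median 0.04), or 29% called. Rbp, the RIM-binding protein of the active zone, stood at 529, 582 and 569 and 688, 691 and 716 CPM (0.32 ± 0.048, edgeR adjusted p = 0.00165), with 826, 833 and 773 CPM in flies without TDP-43. Liprin-alpha, an active zone scaffold, stood at 147, 154 and 149.98 and 175, 183 and 179 CPM (0.25 ± 0.040, edgeR adjusted p = 0.00194). The presynaptic adhesion gene Nrx-1 and the neuroligin gene Nlg2, which encode binding partners, rose as well (0.25 ± 0.049, edgeR adjusted p = 0.00645, 0.06 blocked for Nrx-1 and 0.21 ± 0.042, edgeR adjusted p = 0.00712, 0.0833 blocked for Nlg2). Of 10 nicotinic receptor genes 0 rose and 1 fell, or 10%, below the 14.0% of all genes. The fall was that of nAChRalpha3, from 493, 445 and 442 to 349, 367 and 368 CPM (-0.35 ± 0.056, edgeR adjusted p = 0.00207). Of the 10 neuronal markers 1 rose and 0 fell (median 0.05), also 10%. Appl was the riser, from 2439, 2572 and 2348 to 2859, 2928 and 3033 CPM (0.26 ± 0.043, edgeR adjusted p = 0.00251, 0.0789 blocked). The count of falls in the synaptic list was 0 without Atx2 replicates 1, 2 and 3, and that of risers among neuronal markers 2 without mCherry replicate 3 and among nicotinic receptors 2 without mCherry replicate 1. The neuronal sum was higher in each Atx2 library than in any mCherry library, and the part of a changed share of tissues in the small neuronal rises was not tested.

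**Figure D4:**
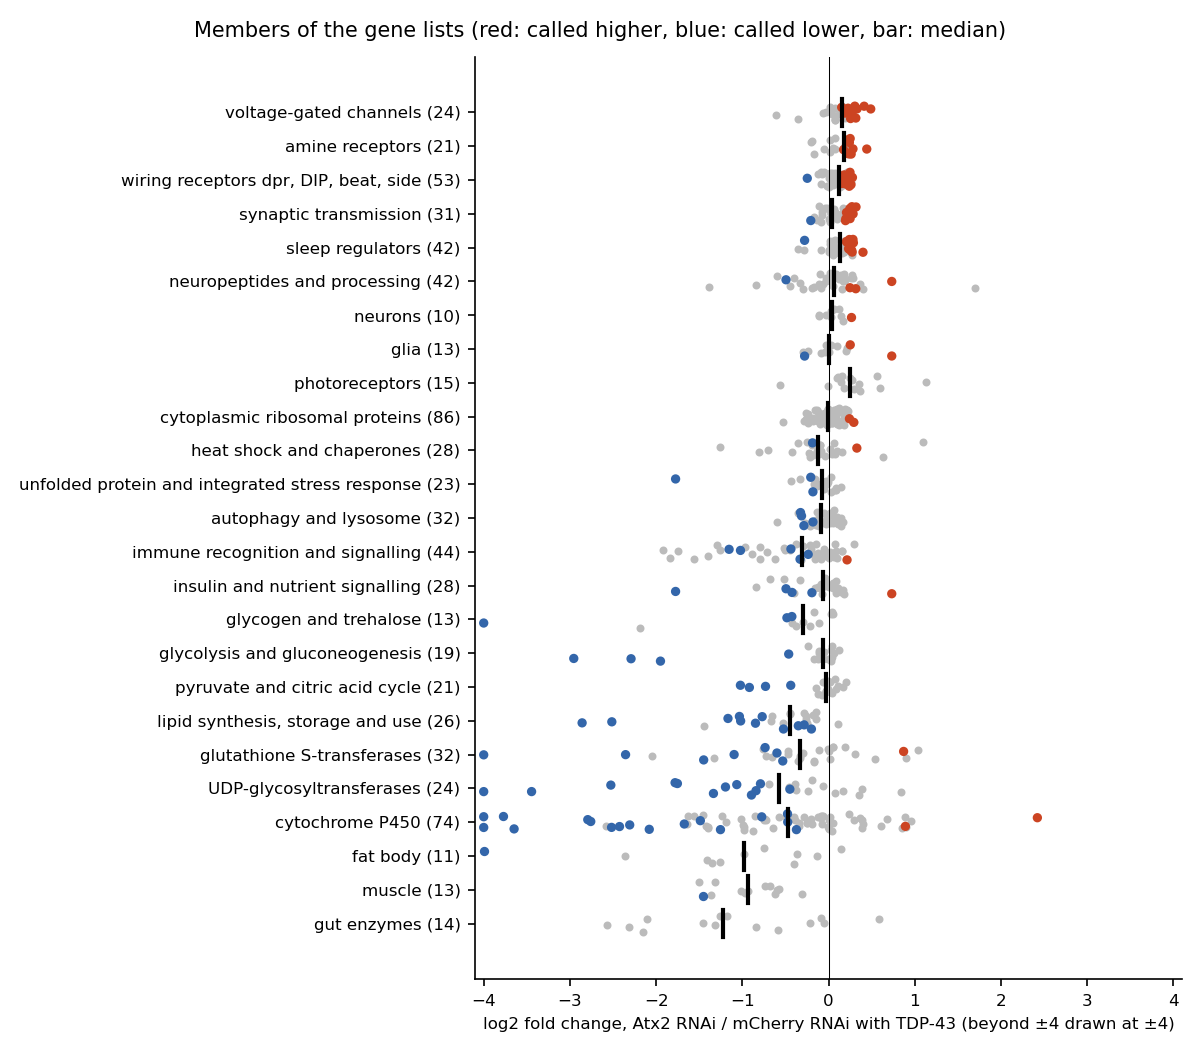
Log2 fold change of Atx2 RNAi over mCherry RNAi with TDP-43 for the tested members of 25 gene lists (number of members in brackets), coloured where called, with the median as a bar and values beyond 4 drawn at 4. The called channels and amine receptors all lie above 0, as do 16 of the 17 called wiring receptors, while 17 P450 genes, 12 UDP-glycosyltransferases and 7 glutathione S-transferases are called below 0.

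Sleep and clock genes were examined because the series concerns sleep. Of 42 sleep genes 10 rose and 1 fell (median 0.13), several of which are also among the channels and amine receptors. Calls made up 26.2% of them, beside 14.0% of all genes. The number of risers was 6 without Atx2 replicates 2 and 3 and mCherry replicate 3, and that of falls 0 in 7 of the 12 fits without 1 library. Nlg4 (3R, 20204809 to 20245473), a neuroligin known from sleep studies in flies, stood at 118, 124 and 122 CPM with mCherry RNAi and 155, 162 and 164 CPM after Atx2 RNAi (0.40 ± 0.049, edgeR adjusted p = 4.43e-04). Its level without TDP-43 was 122, 130.4 and 119 CPM, below the Atx2 libraries as well. The sleep-promoting gene qvr stood at 1009, 972 and 981 and 1145, 1163 and 1170.2 CPM (0.23 ± 0.042, edgeR adjusted p = 0.00434, 0.072 blocked). The gene rut, an adenylyl cyclase of memory and sleep, stood at 344, 409.7 and 374 and 462, 459 and 456 CPM (0.29 ± 0.060, edgeR adjusted p = 0.00823, 0.0614 blocked). In all 3 the groups did not overlap. Of 21 clock genes 4 rose and 4 fell (median 0.08), or 38.1% called. The light receptor gene cry stood at 53.5, 52.3 and 54.7 and 34.5, 34.5 and 36.1 CPM (-0.61 ± 0.069, edgeR adjusted p = 2.58e-04). The gene cyc, whose product partners Clk in the clock's activator, stood at 35.1, 35 and 33.3 and 41.1, 45.9 and 43.6 CPM (0.34 ± 0.060, edgeR adjusted p = 0.00368, 0.0579 blocked). Also called were per, higher, and Clk and qsm, lower. With 1 library left out, per changed by 0.35 to 0.59, Clk by -0.69 to -0.35 and qsm by -1.61 to -0.89. Their calls were lost in 7, 10 and 5 of the 12 fits, and that of qsm also when blocked (edgeR adjusted p = 0.123). The clock genes tim and vri, chosen after their values were seen, were not called. The gene tim stood at 142, 191 and 193 and 205, 244 and 219 CPM (0.35 ± 0.13, edgeR adjusted p = 0.106). The gene vri stood at 47.3, 94.5 and 74 and 110.0, 101 and 81.6 CPM (0.44 ± 0.26, edgeR adjusted p = 0.304). The count of higher clock genes was 1 without Atx2 replicate 2, and that of lower ones 2 without Atx2 replicates 1, 2 and 3 and mCherry replicates 2 and 3. The labels give no hour of collection.

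Of 28 insulin and nutrient signalling genes 17.9% were called, near the 14.0% of all genes, with a median of -0.07. Ilp2 (3L, 9799698 to 9800440), the main insulin-like peptide of the brain's insulin-producing cells, fell from 121, 143 and 117 to 94.6, 87.8 and 87.7 CPM (-0.49 ± 0.072, edgeR adjusted p = 0.00136). InR (3R, 21570248 to 21619321), the insulin receptor gene, fell from 230.3, 227 and 241 to 189.7, 158 and 173 CPM (-0.42 ± 0.073, edgeR adjusted p = 0.00318). Flies without TDP-43 stood at 113, 116 and 109.8 CPM. For both, all Atx2 libraries were below all mCherry libraries. Ilp3, made in the same cells, stood at 2.82, 2.54 and 1.82 and 5.15, 3.82 and 2.99 CPM (0.73 ± 0.21, edgeR adjusted p = 0.0376, 0.096 blocked). This was a rise whose call was lost in 8 of the 12 fits, with a largest adjusted p of 0.132 without Atx2 replicate 1. Thor, the fly 4E-BP, whose transcription rises when insulin signalling is low, stood at 26.1, 60.6 and 62.9 and 18.3, 12.3 and 13.1 CPM (-1.77 ± 0.45, edgeR adjusted p = 0.0327, 0.231 blocked). Its call was lost in 6 of the 12 fits and with the replicate block over all 12 libraries, and mCherry replicate 1 was again the lowest of its group. In the whole list 1 rose and 4 fell, with falls numbering 2 without Atx2 replicate 2 and mCherry replicate 2 and rises 0 in 8 of the 12 fits without 1 library. Of 42 neuropeptide and processing genes 3 rose and 1 fell, or 9.52% called, below the 14.0% of all genes. Rises numbered 0 without Atx2 replicates 1 and 2 and mCherry replicate 3. They numbered 1 without Atx2 replicate 3, mCherry replicate 2 and control Atx2 replicates 2 and 3, and 7 without mCherry replicate 1. Falls numbered 3 without mCherry replicates 1 and 3 and 2 without control Atx2 replicate 1 and control mCherry replicate 3.

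Genes of RNA granules and of translation were called somewhat more often than the 14.0% of all genes, with shares of 27.6% and 22.7%, and medians near 0. Of 29 RNA granule genes and Atx2 partners 6 rose and 2 fell (median 0.05), and Atx2 is one of the falls. Rises numbered 1 without Atx2 replicate 2 and 3 without Atx2 replicate 3. The other fall was pAbp (2R, 18140078 to 18147191), the poly(A)-binding protein that binds Atx2, from 1557, 1564 and 1605 to 1326, 1241 and 1373 CPM (-0.26 ± 0.054, edgeR adjusted p = 0.00841, 0.06 blocked). The translational regulator orb rose from 134, 139.6 and 139 to 163, 166 and 164 CPM (0.25 ± 0.042, edgeR adjusted p = 0.00244). Of 44 translation factors 8 rose and 2 fell (median -0.03), and the count of risers was 3 without Atx2 replicate 2; 4 without Atx2 replicate 3; 5 without mCherry replicate 3, that of falls 1 without Atx2 replicates 1, 2 and 3 and mCherry replicates 2 and 3 and 6 without mCherry replicate 1. The elongation factor eEF1alpha2 rose from 820.0, 801 and 738 to 972, 997 and 1031 CPM (0.35 ± 0.049, edgeR adjusted p = 0.00114). The gene eIF3f1, for a subunit of initiation factor eIF3, rose from 159, 154 and 145 to 177, 188 and 187 CPM (0.27 ± 0.056, edgeR adjusted p = 0.00814, 0.067 blocked). Of 86 cytoplasmic ribosomal protein genes 2 rose and 0 fell, or 2.33% called, with a median of 0.00. Rises numbered 0 without Atx2 replicates 1 and 3; 1 without Atx2 replicate 2, mCherry replicate 3 and control Atx2 replicate 3; 6 without control Atx2 replicate 1, and falls 1 without Atx2 replicate 1, control Atx2 replicates 1 and 2 and control mCherry replicates 2 and 3. In flies without TDP-43, where Atx2 RNAi called 6.17% of all genes (3.24% higher and 2.93% lower), 43 rose and 0 fell and the median was 0.29. The test of the difference between both Atx2 effects, which called 0.428% of all genes, called 0 of these 86 (median difference -0.30), so the ribosomal protein genes are not shown to respond differently.

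Atx2 RNAi without TDP-43 was compared in the other 6 libraries, which share no library with the TDP-43 groups. There, where Atx2 itself went from 363, 343 and 345 to 152, 166 and 162 CPM, 663 genes were called, and 282, 432, 327, 380 and 371 without control Atx2 replicates 1, 2 and 3 and control mCherry replicates 1 and 2. Both comparisons called 347 genes, which is 23.0% of the calls with TDP-43 and 52.3% of those without it, and 342 of them moved the same way, 178 up and 164 down. Across the 10738 genes, Pearson's r of both log2 fold changes was 0.263, a description over genes that are not independent and that share the lines' backgrounds. A gene called with and without TDP-43 can reflect Atx2 itself, or a difference between the hairpin lines, and these cannot be told apart.

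Genes called with Atx2 RNAi in both backgrounds included some with the largest changes. Sec31 (2R, 8893613 to 8898798), a coat protein of vesicles that leave the endoplasmic reticulum, stood at 70.2, 81.4 and 80.2 CPM and 139, 158 and 151 CPM with TDP-43 (0.95 ± 0.060, edgeR adjusted p = 4.05e-06), and changed by 0.95 ± 0.060 without it. ALiX (3R, 27696466 to 27700110), which works with the ESCRT machinery in endosomes, stood at 80, 78 and 73.2 and 137, 144 and 140.1 CPM (0.87 ± 0.058, edgeR adjusted p = 5.34e-06), and changed by 0.76 ± 0.058 without TDP-43. In both genes the Atx2 libraries were all well above the mCherry libraries. The intraflagellar transport gene nompB (2L, 21578292 to 21589423) stood at 2.45, 3.12 and 1.68 and 21.5, 18.2 and 18.2 CPM (2.9998 ± 0.20, edgeR adjusted p = 5.88e-06), with 3.11 ± 0.20 without TDP-43. The gene beside it, CR42546 (21589784 to 21590593), chosen after its values were seen, was also called higher with TDP-43 (edgeR adjusted p = 2.44e-04). It was called higher without TDP-43 too (edgeR adjusted p = 1.72e-04). Of 6 genes tested within 50000 bases of nompB, nompB itself included, these 2 were called with TDP-43, where 14.0% of all genes were. CG30424 (2R, 24965275 to 24967298) stood at 2.97, 4.08 and 4.32 and 14.9, 12.2 and 13.4 CPM (1.84 ± 0.15, edgeR adjusted p = 3.12e-05) and changed by 2.08 ± 0.16 without TDP-43. The pseudogene CR43669 (2L, 16699921 to 16700825) was at or below 3 counts in each mCherry library, 0.0215, 0.0619 and 0.0568 CPM, and stood at 4.94, 6.1 and 5.96 CPM after Atx2 RNAi (edgeR adjusted p = 5.88e-06). Without TDP-43 it stood at 0.0332, 0.067 and 0 and 4.54, 6.58 and 4.14 CPM, the same pattern. The vesicular transporter gene prt, known from the mushroom body, stood at 21.7, 22.1 and 18 and 46.4, 43.8 and 41.6 CPM with TDP-43 (1.09 ± 0.10, edgeR adjusted p = 4.37e-05). Its change without TDP-43 is not given here.

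Among shared falls, Obp99a (3R, 29671657 to 29672334), an odorant-binding protein gene, stood at 27.7, 73.6 and 70 CPM with mCherry RNAi and 4.44, 1.66 and 2.32 CPM after Atx2 RNAi (-4.35 ± 0.46, edgeR adjusted p = 6.47e-04, 0.144 blocked). Without TDP-43 it stood at 4.14, 3.75 and 3.52 and 0.238, 0.244 and 0.336 CPM. It was lower with the hairpin in both backgrounds, and with TDP-43 and the hairpin its libraries overlapped those of flies with neither. CG11313, whose change without TDP-43 is not given here, stood at 3.42, 8.85 and 16.6 and 0.0617, 0.166 and 0.0516 CPM with TDP-43 (-6.60 ± 0.89, edgeR adjusted p = 0.00177). That change was -5.94 without mCherry replicate 3. Without Atx2 replicate 2 the Atx2 libraries left were at or below 3 counts. Cyp28d1, Cyp12a4, Ugt36D1 and Ugt35A1 changed by -0.85 ± 0.071, -1.19 ± 0.10, -0.67 ± 0.10 and -1.03 ± 0.14 without TDP-43, each called there as well. Ilp2 (-0.45 ± 0.072), ref(2)P (-0.29 ± 0.043) and Pepck2 (-1.58 ± 0.26) also fell without TDP-43. The muscle actin gene Act79B stood at 15.6, 18.1 and 16.7 and 7.44, 4.34 and 6.61 CPM with TDP-43 (-1.46 ± 0.16, edgeR adjusted p = 3.43e-04) and changed by -0.87 ± 0.15 without it, a fall in both.

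The difference between the Atx2 effects with and without TDP-43 was tested itself, on the log2 scale and in the same fit. It was called in 46 genes, or 0.428%, with 28 differences above 0 and 18 below. Of the 1161 genes called with TDP-43 and not without, 27 were called for the difference, so for most of them a difference between backgrounds is not shown. The count was 10, 11, 19, 26, 19, 18 and 15 without Atx2 replicate 2, Atx2 replicate 3, control Atx2 replicates 1, 2 and 3 and control mCherry replicates 1 and 2, and 138 with the replicate block over 12 libraries.

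Among genes called for the difference, axo, bdl, Nepl5 and Gld were called with TDP-43 and not without it. Of the 13 glial genes 23.1% were called with TDP-43, beside 14.0% of all genes. In that list axo and repo rose and Gs2 fell, the median was 0.00, and 6 of the 13 changes were below 0. The call of repo was lost in 5 of the 12 fits that leave out 1 library. The glial gene axo (3L, 4629604 to 4687317), of the neurexin family, stood at 156, 189.9 and 188 CPM with mCherry RNAi and 288, 296 and 303 CPM after Atx2 RNAi (0.73 ± 0.067, edgeR adjusted p = 5.56e-05). It stood at 406, 406 and 379.8 and 378, 389 and 371 CPM without TDP-43 (difference of effects 0.80 ± 0.094, edgeR adjusted p = 0.0039). All TDP-43 Atx2 libraries lay between the TDP-43 mCherry libraries and those without TDP-43. The immunoglobulin-domain gene bdl stood at 151, 136 and 118 and 236, 265 and 254 CPM (0.90 ± 0.080, edgeR adjusted p = 5.02e-05). It was at 274, 256 and 257 and 325, 293 and 306 CPM without TDP-43 (difference 0.67 ± 0.11, edgeR adjusted p = 0.027). Nepl5, a neprilysin-like peptidase gene, stood at 58.8, 58.6 and 61.5 and 92.4, 112 and 105 CPM (0.79 ± 0.087, edgeR adjusted p = 2.31e-04). Its level was 227, 219.9 and 179 and 173, 181 and 179.7 CPM without TDP-43 (difference 1.02 ± 0.12, edgeR adjusted p = 0.00419). The TDP-43 Atx2 libraries of Nepl5 lay below those without TDP-43, as for axo, and those of bdl overlapped the mCherry libraries without TDP-43. Gld, the glucose dehydrogenase gene, went the other way, from 5.76, 8.75 and 13.9 to 1.48, 1.54 and 1.65 CPM with TDP-43 (-2.60 ± 0.28, edgeR adjusted p = 1.98e-04). Without TDP-43 it was at 1.76, 1.47 and 1.17 and 1.38, 1.5 and 1.43 CPM (difference -2.57 ± 0.39, edgeR adjusted p = 0.0166), so its Atx2 libraries with TDP-43 were at the level of flies without TDP-43. Ugt35B1 fell in both backgrounds and further with TDP-43 (difference -0.44 ± 0.069, edgeR adjusted p = 0.0189).

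A few genes gave the opposite picture, a larger effect without TDP-43. CG5830 (3L, 15992669 to 16004736) stood at 271, 276 and 257 and 96.7, 97.2 and 90.6 CPM without TDP-43. With TDP-43 it stood at 244, 256 and 262 and 221, 201 and 218 CPM (-0.25 ± 0.050, edgeR adjusted p = 0.00666, 0.0646 blocked), a difference of 1.25 ± 0.071 (edgeR adjusted p = 1.92e-06). The kinetochore gene Mis12 stood at 19.7, 18.5 and 17 and 5.92, 6.09 and 6.61 CPM without TDP-43. With TDP-43 it was at 26.3, 21.3 and 23.5 and 14.8, 17.5 and 17.9 CPM (-0.50 ± 0.10, edgeR adjusted p = 0.00678, 0.0866 blocked; difference 1.06 ± 0.14, edgeR adjusted p = 0.00953). CG7054 was changed with TDP-43 (0.78 ± 0.14, edgeR adjusted p = 0.00343, 0.0736 blocked) by less than without it (2.08 ± 0.14; difference -1.30 ± 0.20, edgeR adjusted p = 0.0163). In these 3 the direction of the Atx2 effect was the same in both backgrounds and its size was not.

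**Figure D5:**
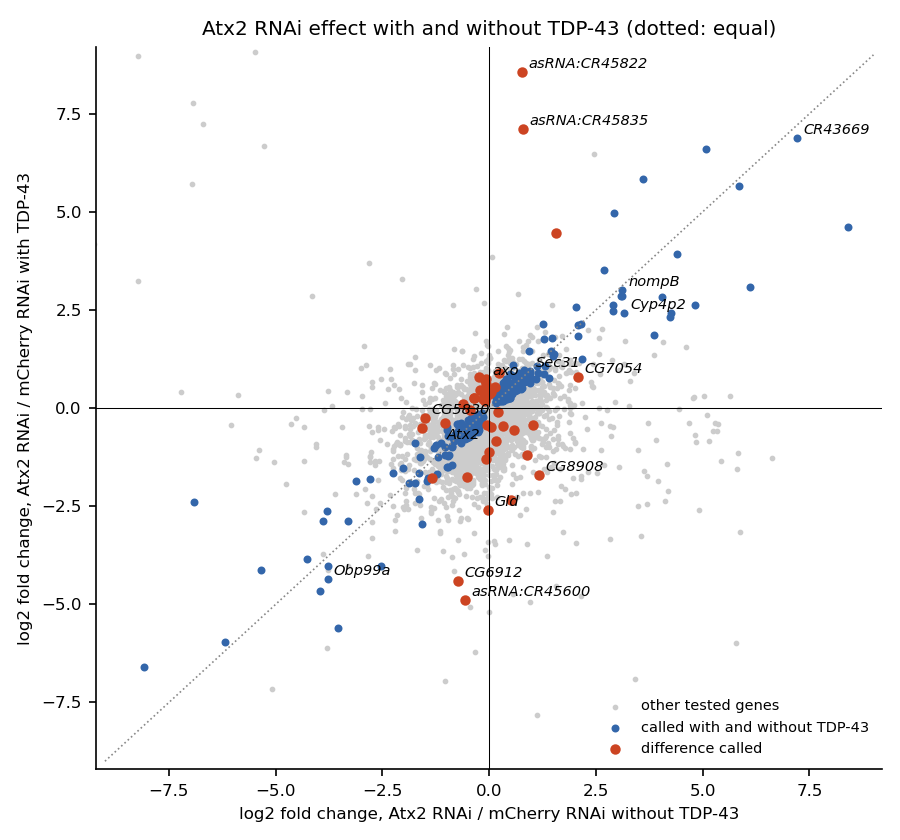
Log2 fold change of Atx2 RNAi with TDP-43 (vertical) against that without TDP-43 (horizontal), 1 point per tested gene, with the 46 genes whose difference was called in red and other genes called in both in blue, and equal changes on the dotted line. Sec31 and nompB lie near the line, and the antisense RNA genes named in the text lie far from it; folds of genes near 0 in a group depend on the prior count.

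On the log2 scale, large differences between the Atx2 effects with and without TDP-43 were seen at 3 sites that hold noncoding RNA genes. The test compares folds, so a like change in CPM from unlike levels can be called as a difference. On chromosome 3L, asRNA:CR45822 (7355717 to 7356598), which overlaps CTCF on the other strand, stood at 0.0215, 0 and 0.0284 CPM in TDP-43 flies with mCherry RNAi, at or below 3 counts a library, and at 8.7, 7.83 and 7.17 CPM with Atx2 RNAi. The neighbouring asRNA:CR45835 (7361639 to 7363598), which overlaps Sec63, stood at 0.043, 0.0928 and 0.0852 CPM, again at or below 3 counts, and at 9.04, 11.4 and 10 CPM. Without TDP-43 asRNA:CR45822 stood at 7.56, 9.37 and 9.41 CPM with mCherry RNAi and 14.3, 14.6 and 16.1 CPM with Atx2 RNAi. There asRNA:CR45835 stood at 13.9, 13 and 11.3 and 21.9, 22.4 and 21.9 CPM. So of the 4 groups the TDP-43 libraries with mCherry RNAi were the ones near 0, in all 3 replicates. In CPM, both antisense genes rose by similar amounts with and without TDP-43, from unlike starting levels. The difference was called for both (edgeR adjusted p = 1.39e-07 and 4.15e-08). Of 21 genes tested within 50000 bases of asRNA:CR45822, 5 were called with TDP-43, where 14.0% of all genes were. They were both antisense genes, for which the site was looked at, and CTCF, Sec63 and pst, all chosen after their values were seen. CTCF (0.20 ± 0.047, edgeR adjusted p = 0.0158, 0.123 blocked) lost its call in 1 of the 12 fits that leave out 1 library, with 0.0746 without Atx2 replicate 3. Sec63 (0.20 ± 0.056, edgeR adjusted p = 0.0385, 0.133 blocked) lost it in 10 of the 12 fits, with an adjusted p of up to 0.142 without Atx2 replicate 2, and pst (-0.72 ± 0.20, edgeR adjusted p = 0.043, 0.206 blocked) in 8 of the 12 fits, with up to 0.14 without Atx2 replicate 2.

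On chromosome 3R, asRNA:CR45600 (15136985 to 15140121) fell from 83.4, 88.6 and 93.3 CPM with mCherry RNAi to 2.75, 3.01 and 3.1 CPM with Atx2 RNAi in TDP-43 flies (-4.90 ± 0.079, edgeR adjusted p = 4.16e-12). CG6912 (15135138 to 15137004), which overlaps its end on the same strand, fell from 69.2, 56.5 and 53.5 to 3.05, 2.42 and 2.92 CPM (-4.42 ± 0.11, edgeR adjusted p = 5.32e-10). Without TDP-43 the levels were 188, 205 and 177 and 124, 135 and 126 CPM for asRNA:CR45600 and 113, 113 and 104 and 68.7, 64.5 and 65.5 CPM for CG6912. These 2 genes were lowest in the TDP-43 Atx2 libraries. No other of the 8 genes tested within 50000 bases was called, where 14.0% of all genes were. The third site was asRNA:CR44291 (3R, 8562828 to 8563798), which overlaps CG31460 on the other strand, at 0.0645, 0.217 and 0.256 and 3.3, 3.35 and 4.95 CPM with TDP-43 (4.46 ± 0.37, edgeR adjusted p = 2.91e-05). Without TDP-43 it stood at 3.61, 3.88 and 2.55 and 10.9, 9.6 and 9.27 CPM. Whether a sequence difference in the lines' backgrounds underlies the levels at these sites was not tested, and the sources used here do not state how strand was used in counting.

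TDP-43 against control with mCherry RNAi uses the same TDP-43 mCherry libraries, so its values are set beside those of Atx2 RNAi with no test of their relation. TDP-43 changed 37.6% of genes there. Rbp, axo, Nepl5, bdl and qvr changed by -0.53 ± 0.049, -1.16 ± 0.067, -1.81 ± 0.089, -0.96 ± 0.080 and -0.31 ± 0.042 with TDP-43. With Atx2 RNAi they changed by 0.32 ± 0.048, 0.73 ± 0.067, 0.79 ± 0.087, 0.90 ± 0.080 and 0.23 ± 0.042. InR, Atg1, Irc, nAChRalpha3 and Gld changed by 1.04 ± 0.074, 1.69 ± 0.045, 2.02 ± 0.072, 1.38 ± 0.057 and 2.69 ± 0.28 with TDP-43. With Atx2 RNAi these changed by -0.42 ± 0.073, -0.29 ± 0.044, -0.49 ± 0.070, -0.35 ± 0.056 and -2.60 ± 0.28. Other genes moved one way in both: cry changed by -0.57 ± 0.069 and -0.61 ± 0.069, Ilp2 by -0.63 ± 0.072 and -0.49 ± 0.072, and Act79B by -1.69 ± 0.16 and -1.46 ± 0.16. By level, InR stood at 113 ± 3.33 CPM (SD, n = 3) in flies with neither, 233 ± 7.36 CPM with TDP-43 and 174 ± 15.8 CPM with TDP-43 and Atx2 RNAi, and Atg1 at 201 ± 7.75, 648 ± 6.21 and 532 ± 22.7 CPM. Ilp2 stood at 196 ± 12.6, 127 ± 13.8 and 90 ± 3.98 CPM. InR and Atg1 with both lay between the other 2 groups, while Ilp2 was lowest with both.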

How the data were processed

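The authors deposited raw counts of reads per gene for 12 libraries, 3 a group, made from reads of 2 × 150 bases per the labels' protocols. Trim Galore, STAR 2.7.3a, SAMtools, DESeq2 and the dm6 build are named in the submitters' processing notes; the counter, its annotation and its strand setting are not given in the sources used here. Totals ran from 29184618 to 45104293 counts. Of 17562 symbols, 17495 were matched to an identifier, 648 by an older symbol, and 67 were not.

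Counts were tested with edgeR 4.0.16 (R 4.3.3): default filter (10738 genes kept), TMM scaling, 1 quasi-likelihood fit of the 4 groups with 8 residual degrees of freedom, and Benjamini-Hochberg adjustment over all genes tested, with calls at 0.05. The labels name 3 biological replicates without saying what was pooled, so p-values measure the spread between these samples. No replicate pair within a group agreed within sampling noise (chi-square per degree of freedom 15.9 to 157). Deviations from the group means of same-numbered TDP-43 libraries correlated at 0.252, 0.623 and 0.193, over the 0.1 taken as pairing, and those of the control libraries at -0.149, -0.1 and -0.333. The script was tested on simulated data. Alternatives were DESeq2 1.42.0, median-ratio scaling, no filter, 6 libraries only, a replicate block, and 1 library left out.

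Genes were named by a rule among called genes whose groups do not overlap: the 8 of largest change each way at 5 CPM or more, the 6 of largest change that carry names and reach 20 CPM, and up to 4 members of each list by p (2 uncalled ones where none was called), besides the 6 largest differences each way between backgrounds at 5 CPM or more, Atx2, TBPH, w, v and y. The 46 lists, their members and the rule were chosen with earlier results of these data known, and 11 listed symbols had no row. No fold is given in the text against a group at or below 3 counts a library (0.0645 to 0.104 CPM). The exceptions are the fitted differences of asRNA:CR45822 and asRNA:CR45835, which depend on the prior count.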

Additional observations from a re-analysis of the deposited data

Results flagged for a closer look

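The effect of Atx2 RNAi differed between flies with and without TDP-43 by the test of the difference itself in 46 genes (edgeR adjusted p below 0.05), and the named ones among them are given here as the log2 effect with TDP-43 minus that without it. The difference was positive for CG5830 (1.25), Mis12 (1.06), Nepl5 (1.02), axo (0.80), bdl (0.67), repo (0.60), Hsp67Ba (0.45) and asRNA:CR44291 (2.89). It was negative for CG16743 (-1.45), CG6912 (-3.69), CG7054 (-1.30), CG8908 (-2.88), Gld (-2.57), GstD2 (-2.86), piwi (-2.09), Ugt35B1 (-0.44), Ugt49C1 (-1.23) and asRNA:CR45600 (-4.34). The fitted differences of asRNA:CR45822 (7.79) and asRNA:CR45835 (6.30) depend on the prior count and are no bounds, since TDP-43 libraries with mCherry RNAi held at most 3 counts of either.

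Those not described above follow by level. The glial transcription factor gene repo stood at 122, 116 and 121 CPM with mCherry RNAi and 130.0, 151 and 147 CPM with Atx2 RNAi in TDP-43 flies, and at 149, 149 and 134 and 107, 122 and 109.9 CPM without TDP-43 (edgeR adjusted p of the difference 0.0189), while its call with TDP-43 (0.25 ± 0.067, edgeR adjusted p = 0.0277, 0.102 blocked) was lost in 5 of the 12 fits without 1 library. The germline Argonaute gene piwi stood at 2.54, 3.25 and 3.04 and 1.27, 1.28 and 1.26 CPM with TDP-43 (-1.21 ± 0.21, edgeR adjusted p = 0.00352, 0.0556 blocked) and at 1.39, 1.24 and 0.918 and 1.88, 2.26 and 2.38 CPM without it. CG8908 stood at 16.7, 26.8 and 32.8 and 8.55, 6.93 and 7.95 CPM with TDP-43 (-1.70 ± 0.23, edgeR adjusted p = 8.87e-04, 0.0708 blocked) and at 1.16, 0.77 and 1.25 and 2.54, 2.23 and 2.44 CPM without it, so its libraries with TDP-43 and those without moved in opposite directions. CG16743 was not called with TDP-43, at 41.1, 56.6 and 64.8 and 45.1, 35 and 40 CPM (-0.43 ± 0.16, edgeR adjusted p = 0.105), and stood without TDP-43 at 54.8, 46.1 and 43.9 and 89.5, 100.1 and 104 CPM. Hsp67Ba stood at 73, 77.5 and 66.5 and 64.8, 66.9 and 67.5 CPM without TDP-43, GstD2 at 0.995, 0.502 and 0.612 and 0.856, 1.11 and 1.04 CPM, and Ugt49C1 at 25.1, 21.5 and 25.6 and 15.9, 16.1 and 18.4 CPM. The number of genes called for the difference fell to 10 without Atx2 replicate 2 and to 11 without Atx2 replicate 3.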

How the results depend on the processing

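No value changed direction while called under any alternative that was run. For Atx2 RNAi with TDP-43, 1508 genes (825 higher, 683 lower) became 911 (465, 446) in the 6 TDP-43 libraries alone and 506 (247, 259) there with the replicate block, which leaves 2 residual degrees of freedom. Without mCherry replicates 2 and 3, an alternative chosen like the 6-library block after seeing the data, 792 (470, 322) were called, and the lone library is assumed to vary like the other groups. A fold of at least 1.5 besides the call left 413. Leaving out 1 library gave 731 to 1664 (381 to 839 higher, 350 to 825 lower), 282 to 784 (140 to 364, 142 to 420) without TDP-43, 3205 to 4261 for TDP-43 itself, and 10 to 68 (7 to 47, 3 to 37) for the difference, whose main count was 46 (28, 18). DESeq2 called 506 (366, 140) for the difference and 529 lower genes without TDP-43, and 1967 with TDP-43. The cause of these shifts was not tested beyond the fewer samples in fits that leave libraries out. The replicate block over all 12 libraries called 1718 with TDP-43 and 138 (89, 49) for the difference; control libraries did not deviate by number, so there the numbers are only a hint of pairing. Median-ratio scaling called 1470 and no filter 1252. With 3 libraries a group, 3057 genes had an unadjusted edgeR p below 0.05 with TDP-43, and 1636 for the difference. What limits the number of calls was not tested.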

Other observations

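Mitochondrial genes with Atx2 RNAi in TDP-43 brains were as follows. Of 74 nuclear genes of the respiratory chain 4 rose and 2 fell (median 0.05), of 72 mitochondrial ribosomal protein genes 3 rose and 3 fell (median 0.02) and of 13 genes of the mitochondrial genome 0 rose and 0 fell. Calls made up 8.11%, 8.33% and 0% of these lists, below the 14.0% of all genes. Without mCherry replicate 1 the respiratory chain had 11 rises and the mitochondrial ribosomal proteins 6. The mitochondrial ribosomal protein gene mRpL24 went from 36.7, 35.7 and 38.9 to 47.8, 45.6 and 49.8 CPM (0.36 ± 0.062, edgeR adjusted p = 0.00288). The mitochondrial large ribosomal RNA gene mt:lrRNA, chosen after its values were seen and not among those 13, stood at 53775, 54593 and 54055 CPM in the mCherry libraries and 40537, 30425 and 36371 CPM in the Atx2 libraries (-0.60 ± 0.11, edgeR adjusted p = 0.0065). These libraries were made from poly(A) RNA.

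Calls in the next lists are to be read beside the 14.0% of all genes. Of 16 genes of the RNA interference machinery 2 rose and 1 fell, of 19 kinesin and dynein genes 3 rose and 1 fell, of 17 serpins 0 rose and 3 fell, of 28 odorant-binding protein genes 0 rose and 2 fell, of 30 cuticular protein genes 2 rose and 0 fell, of 21 vacuolar ATPase subunits 1 rose and 1 fell, and of 10 activity-regulated genes 0 rose and 2 fell. Most of these counts moved by more than 1.5 times with 1 library left out. Arc2, a gene of the capsid-forming Arc family that neuronal activity induces, was at 5.91, 3.9 and 9.89 CPM in the mCherry libraries and at 2.81, 1.4 and 1.24 CPM in the Atx2 libraries (-1.86 ± 0.35, edgeR adjusted p = 0.00555, 0.101 blocked). Gs2, the glutamine synthetase of glia, stood at 1744, 1657 and 1698 and 1383, 1429 and 1394 CPM (-0.28 ± 0.044, edgeR adjusted p = 0.00194, 0.0597 blocked). NT5E-2, a 5'-nucleotidase gene, stood at 17.8, 23.6 and 22.5 and 34, 42 and 37.3 CPM (0.83 ± 0.11, edgeR adjusted p = 8.26e-04), with 12.4, 11.8 and 13.7 and 18, 18.5 and 20.1 CPM without TDP-43. For both NT5E-2 and Gs2 the TDP-43 groups did not overlap.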
